A study of Homo sapiens with 28 samples.

Results

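ZNF genes encode zinc finger proteins, the largest family of transcription factors in the human genome, and their transcripts were followed here in melanoma cells treated with a BET bromodomain inhibitor. A gene was taken when a probe set naming it alone carried a symbol made of ZNF followed by a digit, and when its log2 intensity was above 5 on at least 4 of the 28 arrays. The arrays held 532 such probe sets for 511 ZNF genes, of which 268 passed and 243 did not, and a gene with several probe sets was represented by the one with the highest mean. The genes were thus chosen by their measured log2 intensity over all groups, and their levels are given as a description. Nearest to the threshold, the fourth highest array was at 5.002 for ZNF251, 5.007 for ZNF852 and 5.008 for ZNF77 among the genes kept, and at 4.996 for ZNF354A, 4.993 for ZNF26 and 4.992 for ZNF114 among those left out. A gene could pass through a single group in which it was high, so counts over the 268 genes describe what was measured and do not stand as support for a response.

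All groups were CHL-1 cells, an established line derived from a human melanoma, kept in DMEM with fetal calf serum. BAY1238097 was given on the day after seeding at 468 nM, described by the submitters as the IC90, or at 75 nM, described as the IC50, and control cells received the solvent DMSO. Cells were collected after 4 h or 24 h, and biotin-labelled RNA was hybridised to whole-transcript arrays. Each dose had 5 arrays at each time, and DMSO had 4 arrays at 4 h and 4 others at 24 h. The labels do not tell whether replicate arrays stand for separate cultures; the p-values therefore reflect the spread among these samples alone, and that spread may be technical. The median of all probe sets lay between 2.44 and 2.49 log2 units on each array, so each value is read relative to the other probe sets of its array.

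BET proteins read acetylated histones and help RNA polymerase out of its pause, and inhibitors displace them from chromatin. Most ZNF proteins bind DNA through arrays of fingers in which cysteines and histidines hold a zinc ion, and many carry a KRAB domain that recruits the corepressor TRIM28 and the histone methyltransferase SETDB1 to silence retroelements. Their genes multiplied by local duplication and lie largely in clusters on chromosome 19, where the gene bodies are themselves known to carry repressive histone methylation. Other members act outside this scheme, in chromatin remodelling complexes, at promoters, or on RNA and ribosomes.

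Of the 268 genes, RefSeq placed 127 on chromosome 19, 20 on chromosome 7, 20 on chromosome 16 and 14 on chromosome 1, and it listed 258 as protein coding, 5 as long non-coding RNAs and 5 as pseudogenes. The log2 value was above 5 on every array for 129 of them, and the mean over all arrays was above 5 for 200. Against the melanoma label, 3 of 10 melanocyte lineage genes passed the filter (PAX3, S100B and SOX10), while MITF, PMEL, MLANA, TYR, DCT, TYRP1 and S100A1 did not. None of 10 keratinocyte and 10 endothelial markers passed, 1 of 10 fibroblast markers did (FBLN1), and so did 1 of 10 leukocyte markers (CD68). In bulk RNA, fewer cells of a kind and less RNA per cell cannot be told apart. Of 9 symbols listed as readouts of BET inhibition, HIST2H2BE and H2BC21 name the same gene. BRD2, FOSL1, H2BC21, HEXIM1, MYC, SERTAD1 and TXNIP passed the filter. At 468 nM 5 of these 7 rose and 1 fell at 4 h, and 5 rose and 2 fell at 24 h. That is 85.7% and 100%, against 10.9% and 45.6% of all genes tested. The list was written with earlier results of these data known, so its counts are a description only.

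Changes were tested with limma over 9285 genes, and a gene is said here to have risen or fallen when its Benjamini-Hochberg adjusted p over all of them was below 0.05. Fold changes are differences of mean log2 intensity with their standard error.

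After 4 h at 468 nM, ZNF genes fell more often than they rose, as did all genes tested (368 higher and 645 lower). The lean is therefore not read as particular to ZNF genes. Against DMSO, 42 of the 268 were called, 14 higher and 28 lower. That is 15.7%, against 10.9% of all genes tested. The shares were 5.22% higher and 10.4% lower, against 3.96% and 6.95% of all genes tested. The median log2 fold change was -0.094 over the ZNF genes and -0.027 over all genes tested. The change was at least 2-fold upward for 2 of the called genes and downward for 5. In 33 of the 42, the arrays of the 2 groups did not overlap. Counts by size and by overlap were not made over all genes tested, so they describe the ZNF genes alone.

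The split between rising and falling genes depends on what is held level. When the arrays were shifted so that 9 reference genes stayed level, the median of all genes at 468 nM and 4 h moved to -0.153 and the calls became 7 higher and 35 lower. None of the 9 was called at 468 nM and 4 h, but 3 were higher and 4 lower at 468 nM and 24 h, so splits after this shift that involve 24 h rest on reference genes that themselves moved. Directions given below are relative to the array's own distribution.

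ZNF878, a chromosome 19 gene, showed the largest rise among the 4 h calls. Its log2 intensity was 6.97, 7.38, 7.32, 7.05 and 7.61 on the 468 nM arrays, against 5.45, 6.30, 5.94 and 5.50 on the DMSO arrays. The lowest 468 nM array lay above the highest DMSO array, and the log2 fold change was 1.47 ± 0.19 (SE; adjusted p = 3.46e-06). ZNF468 was at 8.89, 8.51, 8.96, 8.11 and 8.71 with 468 nM and at 7.76, 8.02, 7.53 and 7.70 with DMSO. Again no array of one group reached the other, with a log2 fold change of 0.88 ± 0.17 (adjusted p = 0.000752). ZNF654 was at 6.38, 6.54, 6.75, 6.53 and 6.51 with 468 nM, above its 6.07, 5.64, 5.10 and 5.77 with DMSO, a difference of 0.90 ± 0.19 (adjusted p = 0.00167).

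ZNF844 and ZNF442, of the same run of chromosome 19 genes as ZNF878, rose from dim levels. ZNF844 was at 5.92, 5.01, 5.75, 5.85 and 5.67 with 468 nM and at 4.82, 4.11, 5.01 and 4.99 with DMSO, so that the groups met within 0.01 units; its log2 fold change was 0.91 ± 0.23 (adjusted p = 0.00856). ZNF442 was at 4.38, 4.83, 5.04, 4.91 and 5.08 with 468 nM and at 3.68, 3.37, 3.83 and 4.37 with DMSO, a difference of 1.04 ± 0.28 (adjusted p = 0.0145). Both calls rest on DMSO array 2 at 4 h: without it the adjusted p was 0.0575 for ZNF844 and 0.0673 for ZNF442. ZNF440, which lies in the same run of genes, rose by 0.62 ± 0.14 (adjusted p = 0.00455), but missed the threshold after the reference gene shift (adjusted p = 0.0656). ZNF92 rose by 0.63 ± 0.16 (adjusted p = 0.00884).

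The remaining rises named had no overlap of arrays and were small. ZNF280C, a factor reported to restrain the resection of broken DNA ends, rose by 0.53 ± 0.14 (adjusted p = 0.00947), and missed the threshold after the shift (adjusted p = 0.128). The pseudogene ZNF767P rose by 0.73 ± 0.21 (adjusted p = 0.0208). It missed the threshold without 468 nM array 3 (0.0609) or 4 (0.057), without DMSO array 2 (0.11), and after the shift (0.0662). ZNF292 rose by 0.58 ± 0.18 (adjusted p = 0.0336). It lost its call without 468 nM array 1 (0.0625), 3 (0.061), 4 (0.0804) or 5 (0.0503), without DMSO array 2 (0.0597) or 4 (0.163), and after the shift (0.141).

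The largest falls at 4 h were in genes that lie apart from the chromosome 19 clusters. ZNF827, which recruits the NuRD remodelling complex to telomeres in cells that lengthen them without telomerase, was at 5.34, 5.03, 5.05, 5.28 and 4.77 with 468 nM and at 6.54, 6.79, 6.81 and 6.43 with DMSO. The groups were separated by about a log2 unit, with a log2 fold change of -1.55 ± 0.17 (adjusted p = 3.22e-07). ZNF469, whose mutation causes brittle cornea syndrome, was at 3.91, 3.62, 4.54, 2.44 and 3.97 with 468 nM and at 5.33, 5.77, 5.30 and 5.13 with DMSO. All 468 nM arrays were below the filter level, 1 of them at the median of the whole array, so the size of its change, -1.69 ± 0.33 (adjusted p = 0.000955), is not well fixed.

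ZNF689 was at 5.34, 5.67, 5.49, 5.77 and 5.41 with 468 nM and at 6.64, 6.59, 6.85 and 6.55 with DMSO, with no overlap and a log2 fold change of -1.12 ± 0.17 (adjusted p = 3.62e-05). ZNF691 fell by 1.19 ± 0.17 on the log2 scale, with 468 nM arrays at 3.46 to 4.20 and DMSO arrays at 4.96 to 5.23 (adjusted p = 2.44e-05). The antisense RNA ZNF407-AS1 fell by 1.24 ± 0.19 (adjusted p = 5.97e-05), with 468 nM arrays at 3.72 to 4.56 and DMSO arrays at 5.28 to 5.98. Its probe set was matched by symbol, and whether transcripts of the sense gene reach it was not tested; ZNF407 itself did not pass the test at 4 h (-0.38 ± 0.20). ZNF747, ZNF436 and ZNF618 fell by 0.79 ± 0.17, 0.76 ± 0.19 and 0.75 ± 0.15 (adjusted p = 0.00224, 0.00792 and 0.000853). ZNF451, a SUMO ligase, was -0.80 ± 0.19 in the probe set used (adjusted p = 0.00547), but a dimmer probe set of the gene changed by 0.17, and the call was lost with the mean of both (adjusted p = 0.168).

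**Figure D1:**
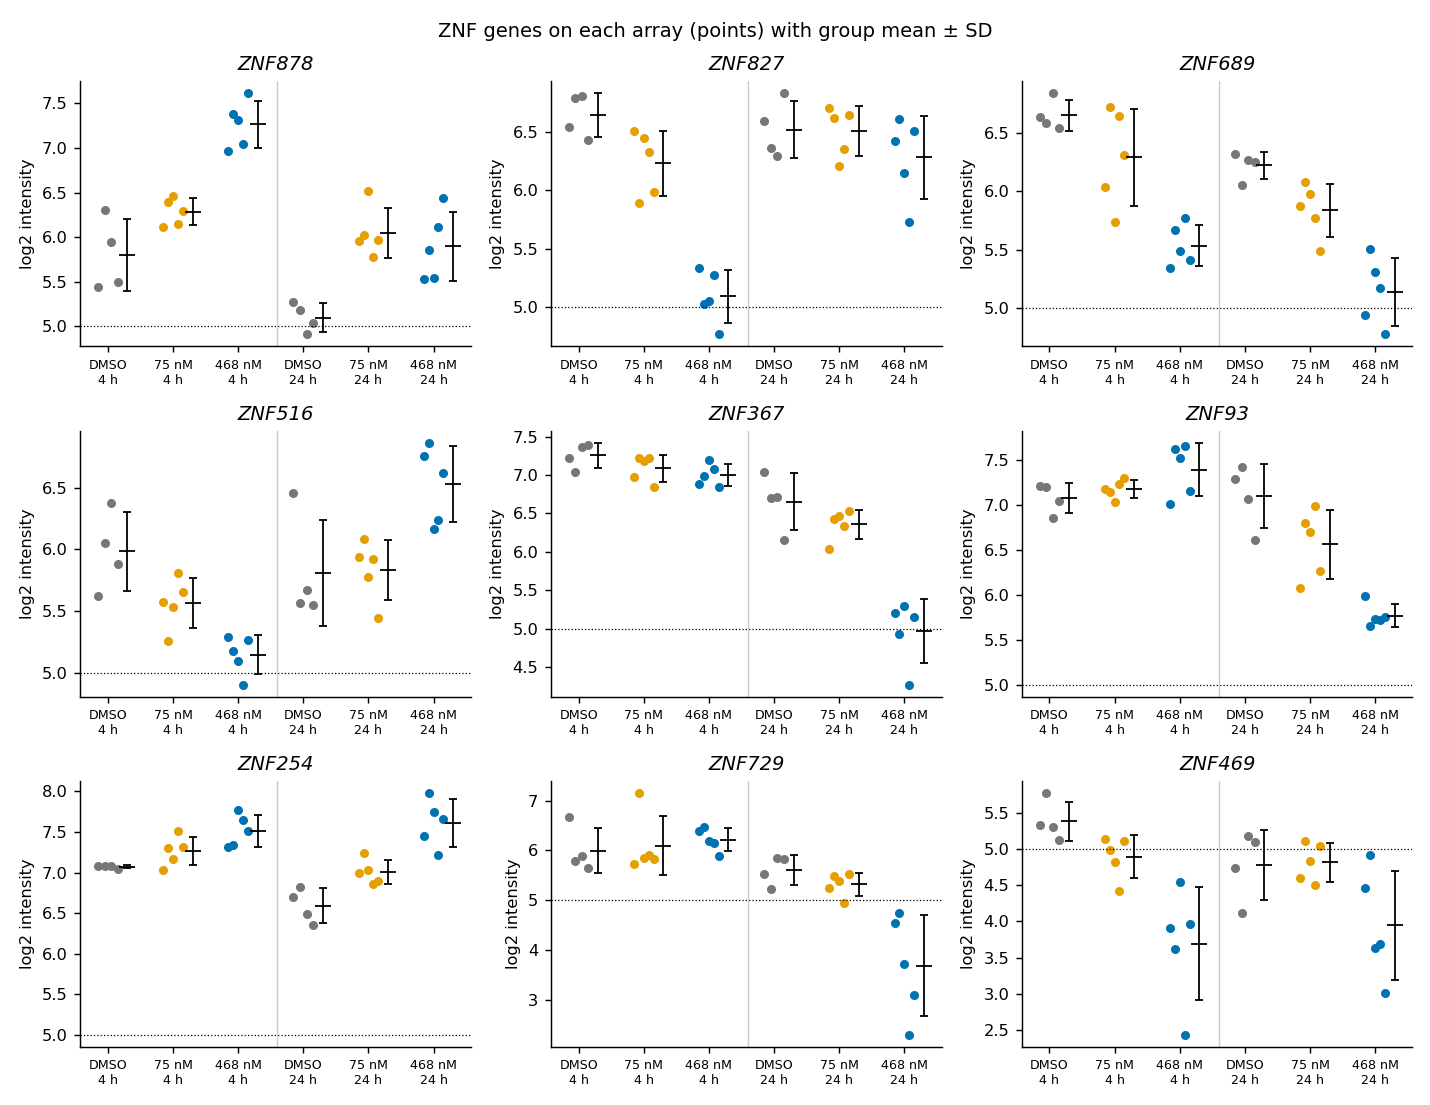
Log2 intensity (vertical axes) of 9 ZNF genes on every array, for DMSO, 75 nM and 468 nM at 4 h and 24 h; points are arrays, bars show the group mean ± SD and the dotted line is the filter level of 5. ZNF878 is highest at 468 nM and 4 h, ZNF827 is lowest in that group, and ZNF367, ZNF93 and ZNF729 are lowest at 468 nM and 24 h.

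After 24 h at 468 nM the calls were split almost evenly. Against DMSO, 95 of the 268 ZNF genes were called, 47 higher and 48 lower. That is 35.4%, against 45.6% of all genes tested. The shares were 17.5% higher and 17.9% lower, against 20.4% and 25.1% of all genes tested. The median log2 fold change was 0.059, against -0.019 over all genes tested. Called changes of at least 2-fold were more often downward, with 17 ZNF genes lower and 5 higher, and 45 had no overlap of arrays. Here too these counts were not made over all genes tested, where calls also leaned downward, so they are not read as particular to ZNF genes. When quantile normalization was repeated on the log2 values, the split became 62 higher and 35 lower.

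ZNF367 fell furthest relative to its error. It was at 5.20, 4.94, 5.30, 4.27 and 5.15 on the 468 nM arrays at 24 h, against 7.04, 6.70, 6.71 and 6.15 on the DMSO arrays. Every 468 nM array was below every DMSO array, and the log2 fold change was -1.68 ± 0.17 (adjusted p = 2e-08). ZNF729 was at 4.54, 4.75, 3.72, 2.30 and 3.11 with 468 nM and at 5.52, 5.22, 5.85 and 5.82 with DMSO. The groups were apart, with a log2 fold change of -1.92 ± 0.35 (adjusted p = 6.94e-05), although the 468 nM arrays spread over more than 2 log2 units below the filter level. ZNF93, which silences LINE retroelements, was at 5.98, 5.65, 5.73, 5.72 and 5.75 with 468 nM and at 7.28, 7.41, 7.07 and 6.60 with DMSO. The 468 nM arrays were tightly grouped beneath the DMSO arrays, with a log2 fold change of -1.33 ± 0.17 (adjusted p = 6.55e-07).

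ZNF724 was at 5.58, 5.75, 5.72, 6.18 and 5.04 with 468 nM and at 7.18, 7.16, 7.27 and 6.50 with DMSO, a difference of -1.37 ± 0.24 with no overlap (adjusted p = 3.44e-05). ZNF215, an imprinted gene of chromosome 11, was at 4.37, 4.38, 4.55, 4.52 and 3.66 with 468 nM and at 5.09, 5.96, 5.88 and 5.70 with DMSO, a difference of -1.36 ± 0.23 (adjusted p = 2.37e-05). Again the groups did not overlap. ZNF98, ZNF300 and ZNF584 fell by 1.76 ± 0.37, 1.41 ± 0.39 and 1.21 ± 0.30 (adjusted p = 0.000331, 0.00446 and 0.00162). ZNF649 fell by 1.13 ± 0.25 (adjusted p = 0.000611) and ZNF689, which had already fallen at 4 h, by 1.09 ± 0.17 (adjusted p = 9.07e-06).

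Among the rises at 24 h, ZNF254 was the one with the lowest adjusted p. It was at 7.45, 7.98, 7.75, 7.21 and 7.66 with 468 nM and at 6.70, 6.83, 6.49 and 6.35 with DMSO, with no overlap and a log2 fold change of 1.02 ± 0.13 (adjusted p = 8.15e-07). ZNF536, known to hold back neuronal differentiation, was at 9.31, 9.93, 8.98, 9.08 and 9.08 with 468 nM and at 8.52, 7.92, 8.30 and 8.26 with DMSO. All 468 nM arrays were higher, by 1.02 ± 0.26 on average (adjusted p = 0.00239). ZNF117 was at 5.04, 5.78, 6.30, 5.89 and 5.66 with 468 nM and at 4.33, 4.72, 5.03 and 3.47 with DMSO, a difference of 1.35 ± 0.29 (adjusted p = 0.000533), the groups meeting within 0.01 units.

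ZNF397 rose by 1.02 ± 0.20, ZNF425 by 0.93 ± 0.24, ZNF529 by 0.92 ± 0.20, ZNF229 by 0.89 ± 0.26 and ZNF554 by 0.83 ± 0.22 (adjusted p = 0.000162, 0.00292, 0.00066, 0.00584 and 0.00295). ZNF610 rose by 1.23 ± 0.46 (adjusted p = 0.0309), but DMSO array 4 was at 3.22 and the others at 4.60 to 4.74. Without that array the adjusted p was 0.148, and it was 0.0572 or 0.0987 without 468 nM array 1 or 3. ZNF558 rose by 0.88 ± 0.29 (adjusted p = 0.0136), and missed the threshold without DMSO array 2 (adjusted p = 0.0585).

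**Figure D2:**
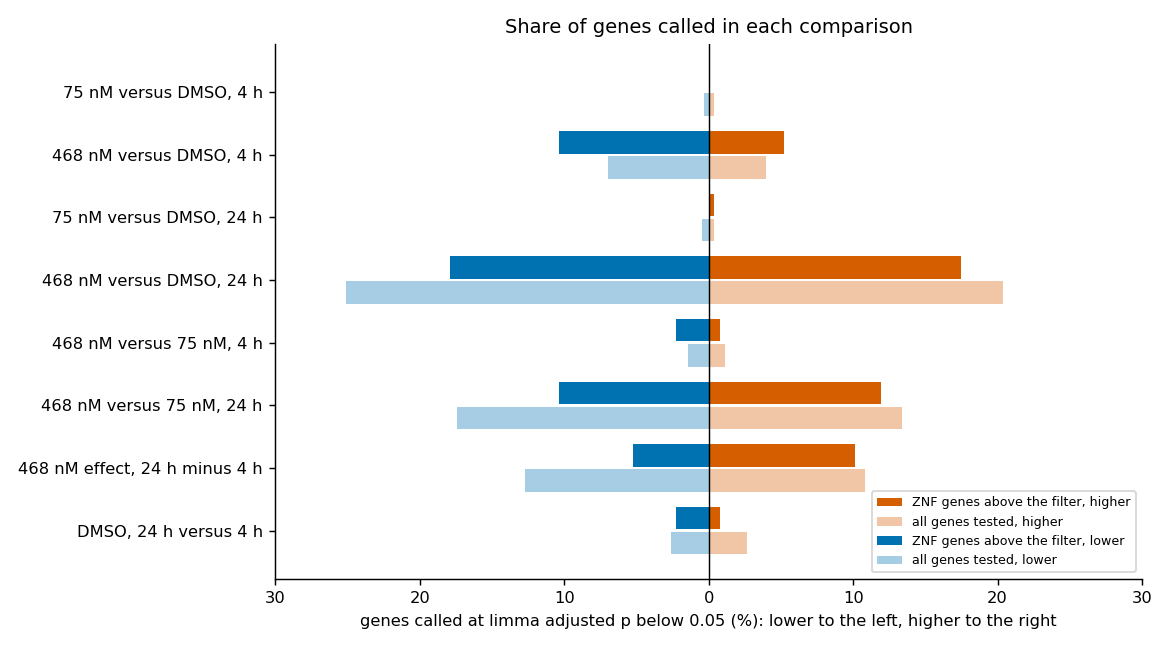
Share of genes called higher (right) and lower (left) at a limma adjusted p below 0.05 in each comparison, in percent, for the 268 ZNF genes (dark bars) and for all 9285 genes tested (pale bars). At 468 nM and 4 h the ZNF share lower was 10.4%, against 6.95% of all genes tested, and at 24 h it was 17.9%, against 25.1%.

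The 4 h and 24 h comparisons use separate DMSO arrays, and their calls are set side by side here. The 2 lists of calls are not independent, because all groups share 1 estimate of the spread of each gene. Of the 42 ZNF genes called at 4 h, 20 were also called at 24 h, which is 47.6% of the first list and 21.1% of the 95 genes of the second. Over all genes tested, 618 of the 1013 called at 4 h were also called at 24 h, where 4231 were called. Of these 20, 9 were higher at both times (ZNF254, ZNF280C, ZNF292, ZNF425, ZNF468, ZNF654, ZNF800, ZNF844 and ZNF878) and 9 were lower at both (ZNF146, ZNF215, ZNF343, ZNF362, ZNF469, ZNF473, ZNF618, ZNF689 and ZNF768). The difference between the times was called for 1 of these 18, ZNF254 (0.57 ± 0.19; adjusted p = 0.0274). On the DMSO arrays alone ZNF254 was lower at 24 h than at 4 h, by limma at -0.48 ± 0.14 (adjusted p = 0.0439). The difference between times takes in the DMSO arrays of both times, and how much of it comes from them was not tested. This DMSO call of ZNF254 was not checked by itself with single arrays left out. The other 2 of the 20 changed direction. At neither time were 151 genes called.

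ZNF516, which binds chromatin with corepressors and in the mouse activates brown fat genes, was one of the 2. At 4 h it was at 5.29, 5.18, 5.10, 4.91 and 5.27 with 468 nM and at 5.62, 6.05, 6.38 and 5.88 with DMSO, a fall of 0.83 ± 0.18 on the log2 scale (adjusted p = 0.00248). At 24 h it was at 6.76, 6.86, 6.17, 6.24 and 6.62 with 468 nM and at 6.45, 5.56, 5.67 and 5.55 with DMSO, a rise of 0.72 ± 0.18 (adjusted p = 0.00216). At 24 h 1 DMSO array overlapped the 468 nM arrays, and the effect differed between times by 1.55 ± 0.26 (adjusted p = 0.000103). ZNF512 fell by 0.42 ± 0.13 at 4 h and rose by 0.55 ± 0.13 at 24 h (adjusted p = 0.0319 and 0.00106), a difference of 0.97 ± 0.18 (adjusted p = 0.000356).

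Over the ZNF genes, the effect of 468 nM differed between the times for 41, 27 of them in the upward and 14 in the downward direction. That is 15.3%, against 23.5% of all genes tested (10.8% upward and 12.7% downward), with a median difference of 0.142 against 0.010. After the reference gene shift the split was 31 and 10, and the median of all genes moved to 0.115. ZNF827, low at 468 nM and 4 h, was at 6.42, 6.61, 6.15, 5.73 and 6.51 with 468 nM and at 6.60, 6.36, 6.29 and 6.83 with DMSO at 24 h. Those groups overlapped, and the effect differed between times by 1.31 ± 0.24 (adjusted p = 0.000279). The same test gave 1.13 ± 0.25 for ZNF691 (adjusted p = 0.00158) and 1.14 ± 0.28 for ZNF407-AS1 (adjusted p = 0.0036).

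ZNF836, ZNF667, ZNF229 and ZNF536 had the largest upward differences besides ZNF516, at 1.77 ± 0.53, 1.77 ± 0.46, 1.54 ± 0.36 and 1.45 ± 0.37 (adjusted p = 0.0163, 0.00641, 0.00296 and 0.00556). For ZNF836 neither time passed the test by itself, at -0.93 ± 0.38 and 0.84 ± 0.38. The largest downward differences were in ZNF729, ZNF519, ZNF93, ZNF367 and ZNF724, at -2.14 ± 0.49, -1.78 ± 0.41, -1.64 ± 0.24, -1.42 ± 0.24 and -1.32 ± 0.33 (adjusted p = 0.00257, 0.00239, 2.67e-05, 0.000141 and 0.00516). At 4 h none of these 5 genes was called against DMSO, and ZNF93 stood at 0.32 ± 0.17.

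**Figure D3:**
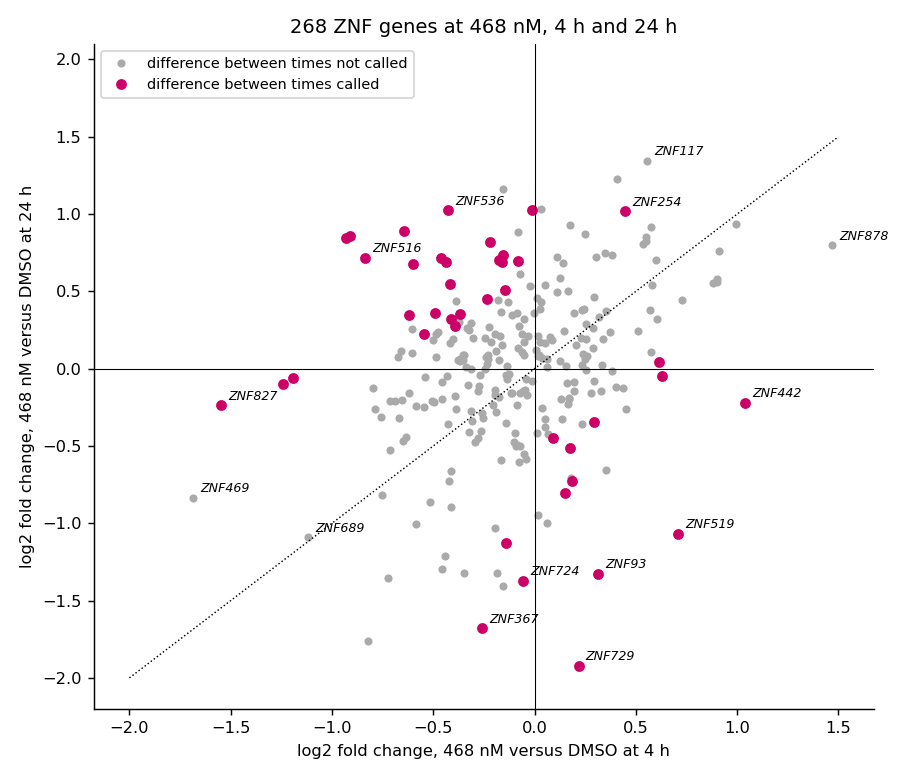
Log2 fold change at 468 nM against DMSO for the 268 ZNF genes, at 4 h (horizontal axis) and 24 h (vertical axis); coloured points mark the 41 genes whose effect differed between the times and the dotted line marks equal change. ZNF93, ZNF367 and ZNF729 lie far below the line, and ZNF516 and ZNF827 lie above it.

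At 75 nM few ZNF genes could be called. At 4 h limma called 0 of the 268, against 0.679% of all genes tested (0.334% higher and 0.345% lower). An unadjusted limma p below 0.05 was found for 38, 15 higher and 23 lower. That count was not made over all genes tested, so it is not read as a response of the ZNF genes. The lowest adjusted p was that of ZNF146, 0.0712, at -0.47 ± 0.12. At 24 h ZNF878 was the single call, which is 0.373%, against 0.872% of all genes tested (0.398% higher and 0.474% lower). It was at 5.96, 6.03, 6.52, 5.77 and 5.97 with 75 nM and at 5.27, 5.19, 4.91 and 5.03 with DMSO. The groups did not overlap, and the log2 fold change was 0.95 ± 0.19 (adjusted p = 0.012).

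Set against each other at 4 h, 468 nM and 75 nM differed for 8 ZNF genes, 2 higher and 6 lower at 468 nM, which is 2.99%, against 2.56% of all genes tested (1.13% higher and 1.43% lower). ZNF878 was higher by 0.98 ± 0.18 (adjusted p = 0.00156), and its mean was 5.80 ± 0.40 with DMSO, 6.28 ± 0.15 with 75 nM and 7.27 ± 0.26 with 468 nM (SD, n = 4, 5 and 5). ZNF827 was lower by 1.14 ± 0.16 on the log2 scale (log2 fold change -1.14; adjusted p = 0.000105), and its mean was 6.64 ± 0.19 with DMSO, 6.23 ± 0.28 with 75 nM and 5.09 ± 0.23 with 468 nM. ZNF777 differed by -0.65 ± 0.15 (adjusted p = 0.0125; 0.0513 without 75 nM array 3). ZNF407-AS1 differed by -0.68 ± 0.18 (adjusted p = 0.0435), and lost its call without 468 nM array 2, 3 or 5 (0.0629, 0.155 and 0.114) or 75 nM array 2, 3 or 4 (0.118, 0.104 and 0.116). The count was 5 without 468 nM array 1 or 3 or without 75 nM array 2 or 4, 4 without 468 nM array 5, and 3 without 75 nM array 3.

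At 24 h the doses differed for 60 ZNF genes, 32 higher and 28 lower at 468 nM, which is 22.4%, against 30.8% of all genes tested (13.4% higher and 17.4% lower). After the reference gene shift the split was 33 and 17. ZNF737, ZNF558, ZNF490, ZNF654 and ZNF516 had the largest rises among called genes without overlap of arrays, at 1.21 ± 0.33, 1.09 ± 0.27, 0.83 ± 0.13, 0.72 ± 0.18 and 0.69 ± 0.17 (adjusted p = 0.00594, 0.00315, 1.85e-05, 0.00287 and 0.00298). ZNF729, ZNF367, ZNF215, ZNF93 and ZNF85 had the largest falls without overlap, at -1.64 ± 0.33, -1.39 ± 0.16, -1.04 ± 0.21, -0.79 ± 0.16 and -0.73 ± 0.16 (adjusted p = 0.000433, 4.39e-07, 0.000546, 0.000444 and 0.00125). Some genes called with overlapping arrays changed by more than some of these, such as ZNF724 (-1.35 ± 0.22) and ZNF300 (-1.06 ± 0.37) among the lower, and ZNF213-AS1 (0.88 ± 0.23) among the higher. ZNF367 had means of 6.65 ± 0.37 with DMSO, 6.36 ± 0.19 with 75 nM and 4.97 ± 0.41 with 468 nM at 24 h (SD, n = 4, 5 and 5). ZNF878 did not pass this test, at -0.15 ± 0.18 (adjusted p = 0.547), with means of 5.10 ± 0.16 with DMSO, 6.05 ± 0.28 with 75 nM and 5.90 ± 0.39 with 468 nM. The comparisons of 1 time share arrays, so each is given by its own values.

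Time in culture also moved some ZNF genes. On the DMSO arrays 8 differed between 24 h and 4 h, 2 higher and 6 lower at 24 h, which is 2.99%, against 5.23% of all genes tested (2.63% higher and 2.61% lower), and the median was -0.116 against 0.001. ZNF667 was at 4.57, 5.23, 4.34 and 3.46 at 24 h and at 6.05, 5.81, 5.25 and 6.21 at 4 h. The times met within 0.02 units, with a difference of -1.43 ± 0.34 (adjusted p = 0.0173). ZNF878, ZNF229, ZNF551 and ZNF367 were lower by the same test (-0.70 ± 0.20, -0.92 ± 0.27, -0.72 ± 0.21 and -0.60 ± 0.18) and ZNF277 and ZNF512 higher (0.60 ± 0.15 and 0.48 ± 0.13), with adjusted p between 0.0232 and 0.0491 for these 6.

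None of the 7 DMSO time calls named above was firm. The other call, ZNF254, was not checked by itself with single arrays left out. The count was 4 without 4 h array 1 or 24 h array 3, 3 without 4 h array 2, 2 without 4 h array 3 or 24 h array 2, 1 without 24 h array 4, and 12 without 24 h array 1. After the reference gene shift it was 4, as 3 higher and 1 lower, with the median of all genes at 0.139. Each of the 7 genes named here lost its call without at least 2 of the 8 arrays; for ZNF667 these were 4 h array 1 (adjusted p = 0.0555) and 24 h array 4 (0.0765).

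ZNF genes with a known molecular role were read in 6 lists. These lists were written with earlier results of these data known, so their shares are given as a description only. Of 19 partners of chromatin complexes, 15 passed the filter, and at 468 nM and 4 h 6 of these fell and 1 rose (46.7% called and a median of -0.24, against 10.9% and -0.027 over all genes tested). The falls were in ZNF827, ZNF516, ZNF451 and ZNF618, described above, in ZNF462, a partner of heterochromatin proteins (-0.55 ± 0.17; adjusted p = 0.0314), and in ZNF532, a fusion partner of NUT in carcinoma (-0.46 ± 0.12; adjusted p = 0.0103). The ZNF462 call was lost without any of 468 nM arrays 1, 2, 3 and 5 (0.0582, 0.0632, 0.0747 and 0.057) or DMSO arrays 1, 2 and 3 (0.0911, 0.0597 and 0.117). ZNF280C was the rise. At 24 h 3 of the 15 were called, against 45.6% of all genes tested. ZNF280C and ZNF516 rose (0.81 ± 0.14 and 0.72 ± 0.18) and ZNF618, a partner of UHRF2, fell (-0.82 ± 0.15; adjusted p = 5.82e-05).

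Of 13 factors that bind defined promoter sequences, 11 passed the filter, and at 468 nM and 4 h 3 fell and 0 rose by limma, while at 24 h 0 were called. That is 27.3% of the list at 4 h, against 10.9% of all genes tested, and none at 24 h, against 45.6%. ZNF202, a repressor of lipid metabolism genes, fell by 0.58 ± 0.13 (adjusted p = 0.00363). ZNF711, mutated in X-linked intellectual disability, fell by 0.62 ± 0.17 (adjusted p = 0.0189), but not without DMSO array 2 (0.0784) or 4 (0.054). ZNF384, a fusion partner in acute lymphoblastic leukaemia, fell by 0.43 ± 0.12 (adjusted p = 0.0168), but not without 468 nM array 3 (0.0536) or DMSO array 2 (0.0571), or with the mean of its probe sets (0.0897). ZNF143, an activator of many housekeeping promoters, did not pass the test at either time (-0.27 ± 0.13 at 4 h and -0.04 ± 0.13 at 24 h).

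Of 14 members with roles on RNA, ribosomes or the spindle, 12 passed the filter, and 0 were called at 468 nM and 4 h by limma, against 10.9% of all genes tested. At 24 h 1 rose and 3 fell, which is 33.3%, against 45.6%. ZNF277, which binds the ribosomal protein RPS2, was at 7.47, 7.38, 7.81, 7.43 and 7.71 with 468 nM and at 6.74, 7.0, 6.68 and 6.87 with DMSO at 24 h, with no overlap and a log2 fold change of 0.74 ± 0.15 (adjusted p = 0.000183). ZNF622, needed for late steps of the large ribosomal subunit, was at 6.18, 6.19, 6.15, 6.09 and 6.01 with 468 nM and at 6.80, 6.64, 6.29 and 6.56 with DMSO, also without overlap (-0.45 ± 0.13; adjusted p = 0.00573). ZNF326, of a complex that couples transcription to splicing, fell by 0.41 ± 0.13 (adjusted p = 0.0113). ZNF830 fell by 0.34 ± 0.13 (adjusted p = 0.0374), a call lost without 468 nM array 1, 3 or 4 (0.0508, 0.111 and 0.0633) or DMSO array 2 or 3 (0.128 and 0.0801).

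Of 15 repressors of retroelements or imprints, 11 passed the filter, and at 468 nM and 24 h 2 rose and 2 fell, which is 36.4%, against 45.6% of all genes tested. ZNF445, which maintains imprints, was at 6.80, 7.37, 6.66, 7.04 and 6.92 with 468 nM and at 6.61, 5.81, 6.60 and 5.83 with DMSO, higher on each array and by 0.75 ± 0.17 on average (adjusted p = 0.000701). ZNF429 rose by 0.72 ± 0.21 (adjusted p = 0.00745). ZNF93 and ZNF649 were the falls. ZNF91, a repressor of SVA retroelements from the same run of chromosome 19 genes as ZNF93, did not pass the test, at 0.12 ± 0.27 at 24 h and 0.01 ± 0.27 at 4 h. At 4 h ZNF202, on this list too, was the single call, which is 9.09%, against 10.9%.

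Of 14 development and lineage factors 5 passed the filter, of which 1 was called at 4 h and 3 at 24 h. That is 20% and 60% of only 5 genes, against 10.9% and 45.6% of all genes tested. ZNF536 rose at 24 h, and ZNF469 fell at 4 h as given above and at 24 h by 0.84 ± 0.33 (adjusted p = 0.0429). The 24 h call of ZNF469 was lost without 468 nM array 3, 4 or 5 (0.0877, 0.08 and 0.138) or DMSO array 1, 3 or 4 (0.0674, 0.124 and 0.111). ZNF704 fell by 0.40 ± 0.16 at 24 h (adjusted p = 0.0403), and its call was lost without 468 nM array 3 or 4 (0.0683 and 0.151), DMSO array 1, 3 or 4 (0.0916, 0.0848 and 0.102), and after the shift (0.0772). ZNF703, an oncogene of luminal breast cancer, did not pass the test (-0.36 ± 0.20 at 24 h). Of 10 genes with p53, stress or signalling roles 7 passed the filter. By limma 0 of these were called at 4 h, against 10.9% of all genes tested. At 24 h ZNF580 rose (0.50 ± 0.15) and ZNF300 fell, which is 28.6% of the list, against 45.6% of all genes tested.

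**Figure D4:**
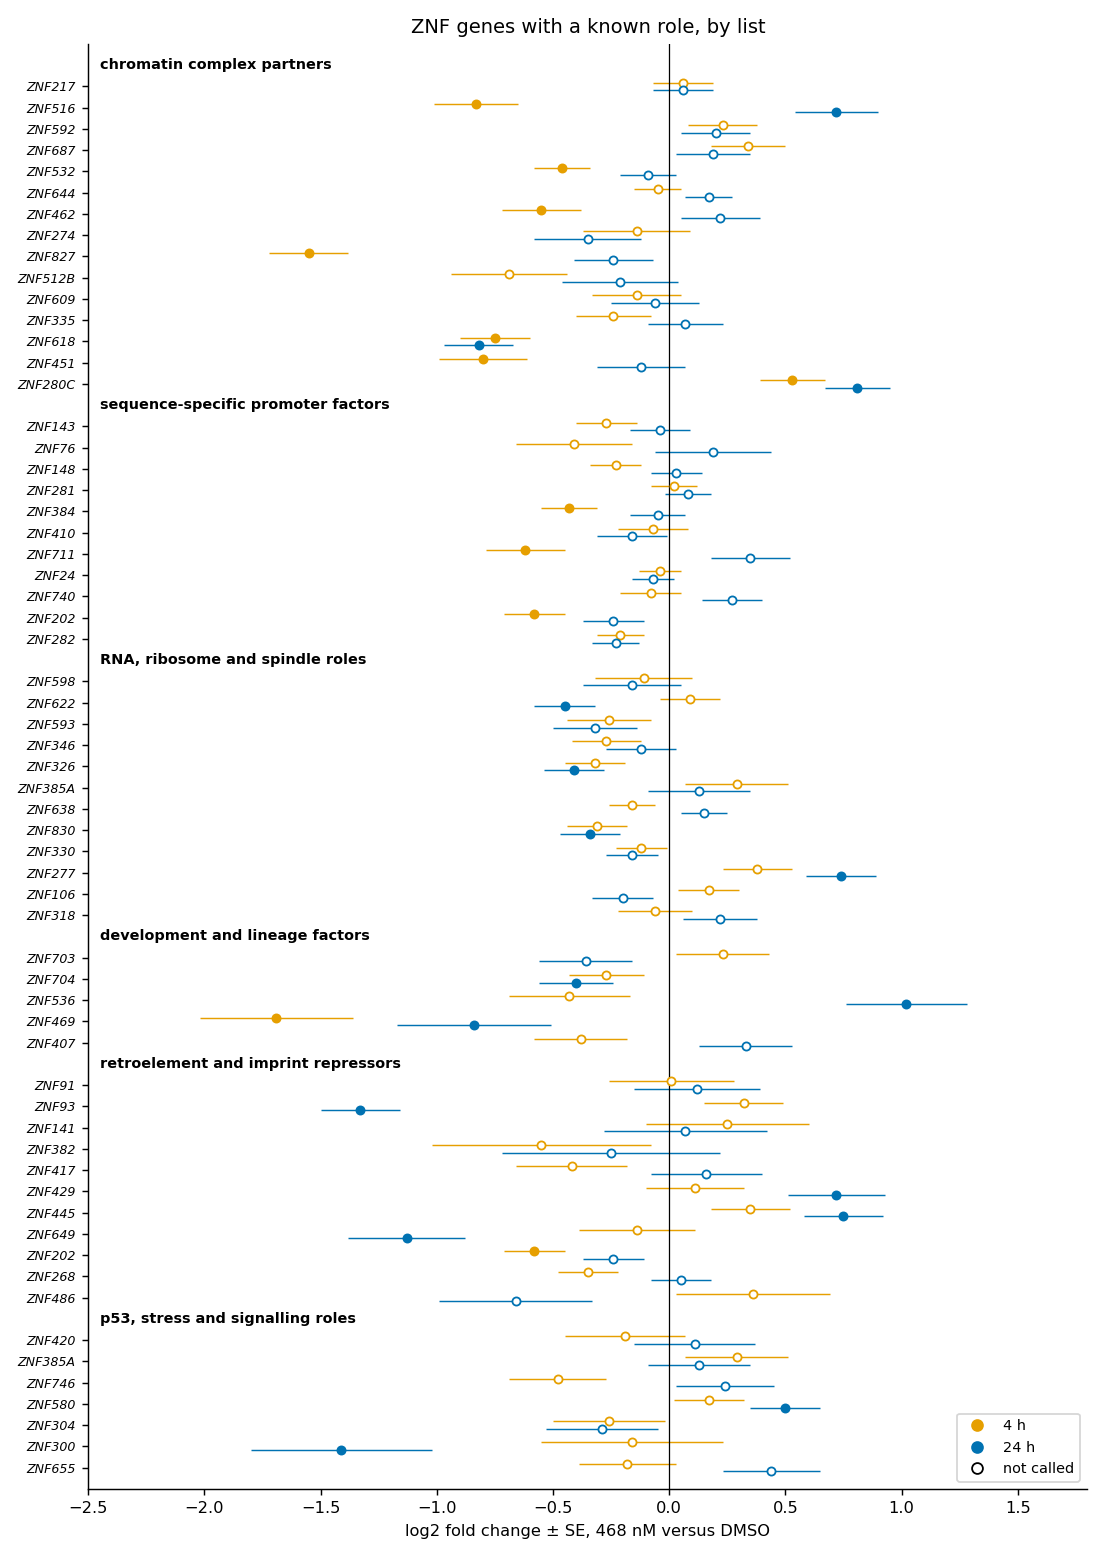
Log2 fold change ± SE at 468 nM against DMSO (horizontal axis) for each ZNF gene above the filter in 6 role lists, at 4 h and 24 h; filled points were called and open points were not. Among the chromatin complex partners 6 fell at 4 h, and in the RNA, ribosome and spindle list 0 were called at 4 h and 4 at 24 h, beside 10.9% and 45.6% of all genes tested.

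The partners through which KRAB zinc finger proteins silence their targets were also read. Of 24 genes of this TRIM28 machinery 23 passed the filter, and 8.7% were called at 4 h and 30.4% at 24 h, below the 10.9% and 45.6% of all genes tested. At 468 nM and 4 h 2 fell, SETDB1 by 0.85 ± 0.10 (adjusted p = 1.04e-06) and the remodeller SMARCAD1 by 0.52 ± 0.12 (adjusted p = 0.00328). At 24 h SETDB1 stood at 0.16 ± 0.10 and did not pass the test. At 24 h 3 rose (TRIM33, MORC2 and MORC3) and 4 fell, among them the methylation maintenance factors UHRF1 (-1.48 ± 0.12; adjusted p = 3.09e-10) and DNMT1 (-0.39 ± 0.12; adjusted p = 0.00843). TRIM28 itself did not pass the test, at 0.20 ± 0.11 at 4 h and 0.00 ± 0.11 at 24 h, and ZNF274, which brings SETDB1 to ZNF gene bodies, stood at -0.14 ± 0.23 and -0.35 ± 0.23.

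Position on chromosome 19 was described next, with no test. Among the 127 ZNF genes there, 7 were higher and 5 lower at 468 nM and 4 h, and among the 141 on other chromosomes 7 were higher and 23 lower. That is 9.45% and 21.3% called, against 10.9% of all genes tested. At 24 h the counts were 21 higher and 24 lower on chromosome 19, and 26 higher and 24 lower elsewhere, or 35.4% and 35.5%, against 45.6% of all genes tested. Runs of ZNF genes with at most 3 other protein coding genes between neighbours were then taken, and those with at least 6 genes above the filter were read. The runs given in detail below are only some of these. In the run from ZNF317 to ZNF846, none of the 8 genes above the filter was called at 468 nM at either time. In the run from ZNF565 to ZNF573, with 12 such genes, 0 rose and 1 fell at 4 h, and 2 rose and 3 fell at 24 h.

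In the run from ZNF627 to ZNF791, 9 of 24 ZNF genes passed the filter. At 468 nM and 4 h 4 of them rose (ZNF440, ZNF878, ZNF844 and ZNF442) and 0 fell, with a median of 0.23; at 24 h 3 rose (ZNF878, ZNF844 and ZNF490) and 0 fell. The shares called were 44.4% and 33.3%, against 10.9% and 45.6% of all genes tested. ZNF490 rose by 0.74 ± 0.14 at 24 h (adjusted p = 8.04e-05). It stood at -0.16 ± 0.14 at 4 h, and the difference of effects was 0.89 ± 0.19 (adjusted p = 0.00135). ZNF440 and ZNF442, which had risen at 4 h, were not called at 24 h (0.04 ± 0.14 and -0.22 ± 0.28). Their differences of effects were -0.58 ± 0.20 and -1.26 ± 0.40 (limma adjusted p = 0.0401 and 0.022).

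The run from ZNF101 to ZNF254 held 37 ZNF genes, of which 30 passed the filter. At 4 h ZNF254 was the single call, at 0.45 ± 0.13 (adjusted p = 0.0279). At 24 h 4 rose (ZNF506, ZNF737, ZNF429 and ZNF254) and 10 fell (ZNF93, ZNF90, ZNF85, ZNF100, ZNF257, ZNF729, ZNF98, ZNF492, ZNF724 and ZNF726), with a median of -0.12. The share called, 46.7%, was near the 45.6% of all genes tested. Genes that rose lay among genes that fell. ZNF85 was at 6.60, 6.64, 7.12, 7.28 and 6.24 with 468 nM and at 7.78, 7.59, 7.67 and 7.27 with DMSO, overlapping at 1 array, with a log2 fold change of -0.80 ± 0.17 (adjusted p = 0.00045). Of the same run ZNF506 rose by 0.93 ± 0.24 (adjusted p = 0.00298). ZNF257 fell by 1.32 ± 0.29 (adjusted p = 0.000634). Genes of such runs are close copies of each other, and how far a probe set also binds transcripts of a neighbour was not tested.

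**Figure D5:**
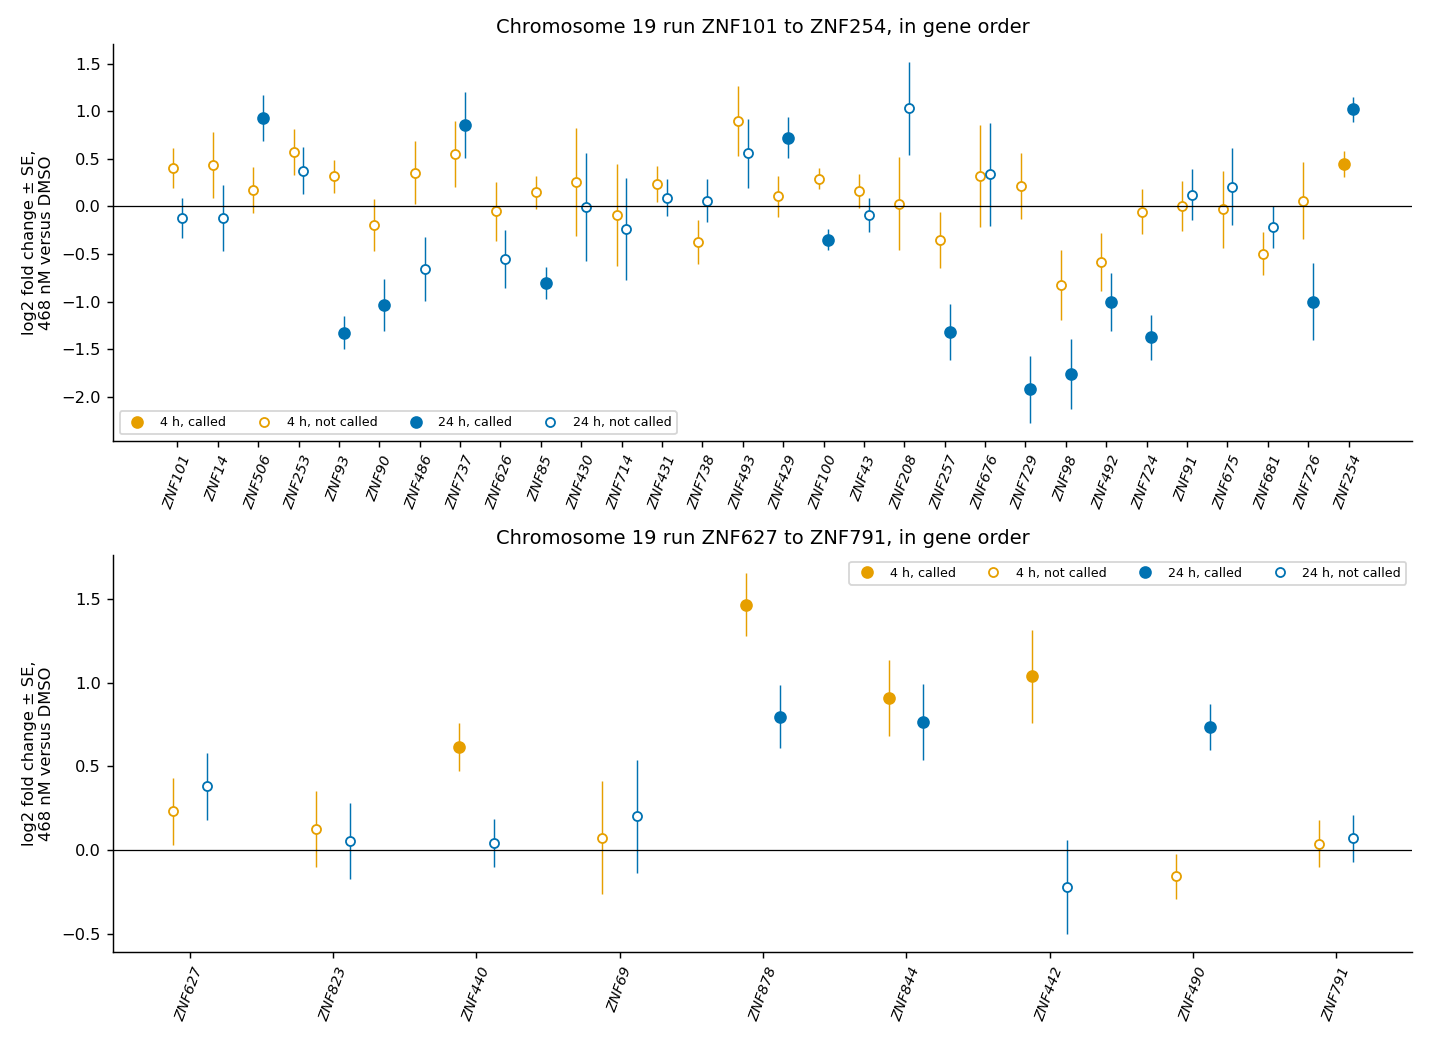
Log2 fold change ± SE at 468 nM against DMSO (vertical axis) for the ZNF genes above the filter in 2 runs of chromosome 19, in gene order, at 4 h and 24 h; filled points were called. In the upper run 10 genes fell and 4 rose at 24 h, and in the lower run 4 rose at 4 h.

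The promoters of these runs are shown because genes of 1 run that moved in opposite directions carry the same string there. They come from RefSeq, build GRCh38.p14, and reach from 250 bases before the gene's start to 50 after it; 227 of the 268 genes had an entry. In the first 4, from the longer run, the capitals mark GTCCAATCAGG, the longest string with a CCAAT box shared by the promoters of ZNF93, ZNF724, ZNF85, ZNF737 and ZNF254, chosen after the changes were known. ZNF93 (chr19:19900696-19900995, plus strand) and ZNF724 (chr19:23250345-23250644, minus strand) fell at 24 h, and ZNF737 (chr19:20565732-20566031, minus strand) and ZNF254 (chr19:24086937-24087236, plus strand) rose.
ZNF93: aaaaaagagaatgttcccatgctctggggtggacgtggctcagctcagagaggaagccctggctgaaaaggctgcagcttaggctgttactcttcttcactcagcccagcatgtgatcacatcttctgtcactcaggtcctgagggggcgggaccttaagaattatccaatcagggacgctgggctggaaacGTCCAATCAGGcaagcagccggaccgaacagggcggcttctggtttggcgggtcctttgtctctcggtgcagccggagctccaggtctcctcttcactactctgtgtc
ZNF724: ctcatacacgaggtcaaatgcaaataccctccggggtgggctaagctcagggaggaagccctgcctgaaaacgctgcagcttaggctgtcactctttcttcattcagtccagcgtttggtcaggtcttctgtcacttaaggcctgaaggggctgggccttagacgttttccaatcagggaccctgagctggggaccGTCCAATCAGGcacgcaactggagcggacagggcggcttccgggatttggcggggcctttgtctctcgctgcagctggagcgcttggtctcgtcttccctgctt
ZNF737: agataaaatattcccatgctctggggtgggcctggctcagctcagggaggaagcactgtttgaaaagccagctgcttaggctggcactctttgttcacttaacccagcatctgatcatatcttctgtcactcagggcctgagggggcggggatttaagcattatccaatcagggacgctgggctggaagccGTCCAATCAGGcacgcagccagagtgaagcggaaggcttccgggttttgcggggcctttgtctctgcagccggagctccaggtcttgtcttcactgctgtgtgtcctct
ZNF254: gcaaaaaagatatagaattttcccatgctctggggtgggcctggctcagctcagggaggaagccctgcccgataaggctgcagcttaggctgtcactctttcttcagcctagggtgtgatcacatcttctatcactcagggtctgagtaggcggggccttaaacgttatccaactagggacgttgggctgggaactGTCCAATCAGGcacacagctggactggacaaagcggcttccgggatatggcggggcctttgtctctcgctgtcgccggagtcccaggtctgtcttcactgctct
From the shorter run, ZNF878 (chr19:12052912-12053211, minus strand) and ZNF844 (chr19:12064481-12064780, plus strand) rose at 4 h, and the capitals mark CCAATCAG, the part of that string that they share with ZNF442 and ZNF440.
ZNF878: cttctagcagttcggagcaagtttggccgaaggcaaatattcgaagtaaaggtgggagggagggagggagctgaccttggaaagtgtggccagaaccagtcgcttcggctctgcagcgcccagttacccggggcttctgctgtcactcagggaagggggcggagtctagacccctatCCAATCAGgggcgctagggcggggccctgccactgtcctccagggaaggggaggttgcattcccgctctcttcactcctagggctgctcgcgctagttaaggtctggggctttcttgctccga
ZNF844: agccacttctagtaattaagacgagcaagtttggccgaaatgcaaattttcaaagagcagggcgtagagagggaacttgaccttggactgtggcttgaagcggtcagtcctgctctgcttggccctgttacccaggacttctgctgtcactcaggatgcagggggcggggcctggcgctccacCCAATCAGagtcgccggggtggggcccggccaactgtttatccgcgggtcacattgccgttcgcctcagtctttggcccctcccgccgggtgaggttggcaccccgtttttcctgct

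Both strands were searched for each string, and CCAATCAG is contained in GTCCAATCAGG. The longer string was found in 19 of 24 promoters of the run from ZNF101 to ZNF254. By the 24 h call, it was in 6 of 8 promoters of genes that fell, 2 of 3 of genes that rose and 11 of 13 of genes not called. Both rising genes with it, ZNF737 and ZNF254, and 3 of the falling ones were among the 5 used to find it, so nothing is read from these counts about direction. It was in 11.9% of the promoters of ZNF genes above the filter, 0.0824% of those of the other genes tested and 0.227% of all 27305 promoters. The shorter string was in each of the 24 promoters of that run and each of the 9 of the run from ZNF627 to ZNF791. It was in 22.5% of the promoters of ZNF genes above the filter and 4.16% of all promoters. The ETS core CCGGAAG was in 42.7% of the promoters of these ZNF genes, 1579 of the 7506 promoters of all genes tested and 10.7% of all promoters. A match is a description of the letters in this window and not a binding site.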

How the data were processed

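For each of 28 arrays the authors deposited a linear intensity for 53617 probe sets. Per the submitters' processing notes RMA was used, a method of background correction, quantile normalization and summary over probes. The sources used here do not give its version or the genome build. Quantile normalization hides a shift common to most transcripts. The number of arrays limits the precision.

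Values were transformed to log2. Of the probe sets, 23871 had 1 gene symbol in the platform annotation, 1842 had several and 27904 were not listed. Symbols were updated through RefSeq (GRCh38.p14). Linear models with 6 group means, 22 residual and 3.84 prior degrees of freedom, were fitted with limma 3.58.1 in R 4.3.3 to 9285 genes with log2 above 5 on at least 4 arrays, followed by empirical Bayes moderation and Benjamini-Hochberg adjustment over all of them. Python 3.11.15 was used otherwise. The fit was tested on simulated data.

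The genes named were, at 468 nM against DMSO, the 10 largest called changes each way without overlap of arrays, 5 each way in other comparisons (overlap allowed for the difference between times and for DMSO over time), and members of the role lists. Other genes of the chromosome 19 runs, those called at both times, ZNF146 at 75 nM, ZNF407, and genes with overlap between doses at 24 h were named after their values were seen. The members, lists and named comparisons were chosen with earlier results of these data known. Replicate numbers follow the order of listing. Alternatives covered the filter on dim genes, the arrays in the fit, a block for sets of neighbouring title codes, normalization, probe set choice, the variance trend and each array left out. Counts of protein domains were planned but not made here, because no protein sequences were used.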

Additional observations from a re-analysis of the deposited data

Results flagged for a closer look

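In 112 combinations of a named gene and a group, 1 array stood far from the rest of its group in 10, by Dixon's criterion, and chance alone marks about 1 in 20. Among 468 nM arrays at 24 h, array 5 was low for ZNF215 (3.66, others 4.37 to 4.55) and array 1 was high for ZNF93 (5.98, others 5.65 to 5.75). At 4 h, 468 nM array 3 was high for ZNF280C (8.79, others 8.15 to 8.31) and array 2 was low for ZNF844 (5.01, others 5.67 to 5.92). Among DMSO arrays at 4 h, array 2 was high for ZNF407-AS1 (5.98, others 5.28 to 5.38) and low for ZNF512 (6.47, others 6.92 to 7.0) and ZNF767P (4.53, others 5.13 to 5.20), and array 4 was high for ZNF691 (5.23, others 4.96 to 5.01). At 24 h DMSO array 4 was low for ZNF610 (3.22, others 4.60 to 4.74) and ZNF724 (6.50, others 7.16 to 7.27).

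By the interaction test in limma, the effect of 468 nM differed between 24 h and 4 h for 41 ZNF genes. The 5 largest differences each way are repeated here. The difference on the log2 scale was 1.77 for ZNF836, 1.77 for ZNF667, 1.55 for ZNF516, 1.54 for ZNF229 and 1.45 for ZNF536, and it was -2.14 for ZNF729, -1.78 for ZNF519, -1.64 for ZNF93, -1.42 for ZNF367 and -1.32 for ZNF724. Without a filter on dim genes the adjusted p of ZNF836 was 0.0504. ZNF667, ZNF229 and ZNF367 were also among the genes that differed between times on the DMSO arrays.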

How the results depend on the processing

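Only called changes of genes named by rule or list were checked for direction, and none of these changed direction under an alternative. Splits of calls did: DMSO over time gave 3 higher and 1 lower after the reference gene shift, against 2 and 6, and 468 nM at 24 h gave 62 higher and 35 lower after repeated quantile normalization, against 47 and 48. With log2 above 7 required, 67 ZNF genes were tested, and the calls fell to 16 and 31 at 468 nM against DMSO (4 h and 24 h), 3 and 20 between doses, and 17 for the difference between times, with 1 at 75 nM and 4 h. Filtering on the mean gave 5 between doses at 4 h and 2 at 75 nM and 24 h. With no filter there were 3 and 34 between doses, 0 at 75 nM and 24 h and 0 for DMSO over time. Fitting only the groups compared gave 3 between doses at 4 h and 0 for DMSO over time. An intensity trend gave 1 at 75 nM and 4 h, repeated quantile normalization 3 at 75 nM and 24 h, and the reference gene shift 4 for DMSO over time. Leaving out each array gave 30 to 41 and 79 to 93 calls at 468 nM against DMSO (4 h and 24 h), 0 to 1 and 1 to 2 at 75 nM, 3 to 8 and 43 to 58 between doses, 33 to 46 for the difference between times and 1 to 12 for DMSO over time. The cause of these moves was not tested, beyond fewer genes and arrays.

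Title codes fall into sets of neighbours whose meaning no label gives. In 1 of these sets all arrays were of treated cells, so those arrays have no DMSO array of their own set. Over 66 pairs of arrays of 1 set the median correlation of deviations was 0.098 and 33 pairs were above 0.1, against -0.02 and 30 of 260 pairs of different sets, and 22 of 28 arrays correlated best with their own set. With the sets as a replicate block the calls were 1 at 75 nM and 4 h, 3 at 75 nM and 24 h and 13 for DMSO over time, and within 1.5 times the reported count elsewhere. Dim genes limit the sizes: 68 of the 268 had a mean no higher than 5.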

Other observations

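Other zinc finger families were read beside the ZNF genes at 468 nM. Of 28 ZBTB genes above the filter, whose BTB domain mediates pairing with other proteins, 8 fell and 0 rose at 4 h, with a median of -0.27, and at 24 h 6 rose and 7 fell. Of 12 KLF genes, 5 fell and 0 rose at 4 h, and 6 fell and 1 rose at 24 h, with a median of -0.41. Of 6 ZKSCAN genes, 2 rose and 1 fell at 4 h, and 4 rose and 0 fell at 24 h, with a median of 0.60. Of 10 ZSCAN genes 0 were called at 4 h, and at 24 h 3 rose and 0 fell. These counts by limma stand beside 10.9% of all genes called at 4 h and 45.6% at 24 h.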
